A study of Mus musculus with 4 samples.

Results

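The comparison described here is that of high-fat diet with chow in wild-type mouse liver, read from the array titled WT HFD and the array titled WT chow, which are 2 of the 4 arrays of the study. The study measured liver RNA of male mice, wild type or LASS2-/-, on chow or a high-fat diet, with 1 Affymetrix 3' expression array in each group. LASS2 is the former name of Cers2, a ceramide synthase. Both groups used here were wild type, and they differed by the diet given from 3 weeks of age, which held 60% of calories from fat on the high-fat arm and 10% on the arm that the labels call chow. The strain, the length of feeding, the fasting state, the hour at which liver was taken and the number of mice behind an array are not stated in the sources used here. There was no replicate in either group, so no value below has an error between animals, no p-value was computed, and a difference between the arrays is a difference between those RNA samples.

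Liver takes up fatty acids from blood, makes others from sugar, burns them in mitochondria and peroxisomes, and stores the remainder as triglyceride in droplets that are coated by perilipins and CIDE proteins. When dietary fat exceeds what is burnt or exported, droplets enlarge and the liver becomes steatotic, which is the usual outcome of long feeding of a diet rich in fat to male mice. Mouse liver is also strongly sex dimorphic, because males and females secrete growth hormone in different temporal patterns, and many cytochrome P450, transporter and steroid enzyme genes follow that pattern through STAT5 and its partners.

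Values are log2 signals of the MAS5 algorithm, called signal here, and each fold is the ratio of the signals on the linear scale, high-fat diet against chow. Each array was floored at its median over all probe sets, which was 6.17 on chow and 6.19 on the high-fat array, and a fold with the lower array under that floor is a lower bound, written as "at least". Of 18193 named genes, 12493 entered by reaching the floor on at least 1 of the 4 arrays, and each was read from the probe set with the highest mean signal over the 4 arrays, called the brightest here. Where probe sets are counted, the count is of those that lay on the same side of zero, whatever the size of their ratio, among the gene's probe sets that entered. Among these, 10548 were at or above the floor on both wild-type arrays, 1235 on only 1 of them and 710 on neither. The trimmed mean signal of the arrays was 495.8 on chow and 495.9 on the high-fat array, and hepatocyte transcripts were bright: albumin (Alb) had a signal of 15.08 on chow and 15.07 on the high-fat array, apolipoprotein A1 (Apoa1) 15.67 and 15.66, and the master regulator Hnf4a 13.76 and 13.52. The markers thus matched the tissue label. With so few arrays, their number limits how precise any value can be.

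The median log2 ratio of all genes was 0.02 and their SD was 0.44. At least 2-fold higher on the high-fat array were 266 genes, 2.13% of those entered, and at least 2-fold lower were 155, or 1.24%, so that 3.37% lay 2-fold apart in either direction. These shares are the background for the counts of list members called higher or lower below, which mean at least 2-fold. Counts of members by the sign of their ratio alone have no such share beside them. They describe the members only and were not set against all genes. The median of all genes, 0.02, equals the ratio of the floors alone. At 4-fold, 28 genes were higher and 26 lower. Of the 266 higher genes, 213 were measured on both arrays and 53 are lower bounds, and of the 155 lower genes, 128 were measured and 27 are bounds. The SD of the log2 ratio was 0.41, 0.51, 0.43 and 0.38 in 4 groups of equal size from the dimmest genes to the brightest, and the second group held 107 of the 266 higher genes. Nothing separates the genes around the 2-fold limit: Tcl1b3 (log2 ratio of 1.0002) and Mirg (1.0013) stood just inside it, and Rhbdf1 (0.9997) and Stat5a (0.9987) just outside.

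**Figure D1:**
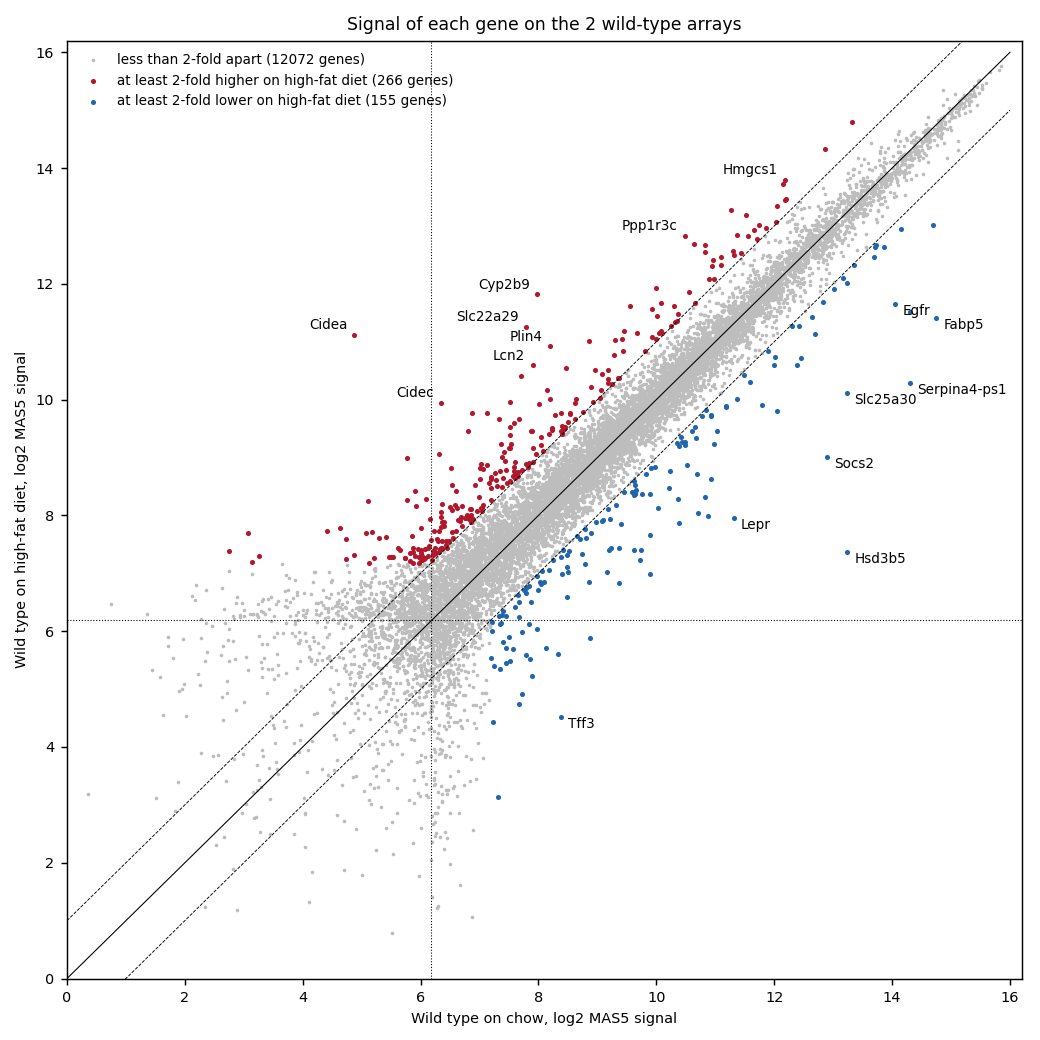
Signal of each of the 12493 genes on the wild-type chow array (x axis, log2 MAS5 signal) against the wild-type high-fat array (y axis, log2 MAS5 signal), where solid and dashed diagonals mark equality and 2-fold and dotted lines mark the floors of 6.17 and 6.19. The 266 red genes lie at least 2-fold above equality and the 155 blue genes at least 2-fold below it. By the floored ratio Cidea is the farthest above and Hsd3b5 the farthest below. Signals are drawn before flooring and colours follow the floored ratio, so genes under a floor can lie beyond a dashed line in grey.

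The droplet proteins Cidea and Cidec lay farther apart than any other lipid gene listed. Of 15 coat and fusion proteins listed, 14 entered, 5 were higher, none was lower and the median log2 ratio was 0.31. Cidea, which drives the fusion of droplets into larger ones and is best known from brown fat, had a signal of 4.88 on chow, under the floor, and 11.12 on the high-fat array, at least 30.8-fold higher. Cidec, its relative known from white fat and fatty liver, went from 6.35 to 9.94, or 12.1-fold. Plin4, a perilipin of adipocyte droplets, had 8.19 and 10.93, or 6.65-fold. On chow Cidea and Cidec were under or near the floor, and on the high-fat array all of these genes were clear of it. The difference was smaller for genes already bright on chow. Fitm1, which helps droplets bud from the endoplasmic reticulum, had 10.00 and 11.44, 2.71-fold higher, and Plin5, which tethers droplets to mitochondria, had 11.43 and 12.53, 2.14-fold higher. Plin2, the main perilipin of hepatocytes, had 13.77 and 14.14, a log2 ratio of 0.37, and Cideb, the hepatocyte member of the CIDE family, had 12.30 and 12.48. The inhibitors of the lipase Pnpla2 were on the other side of zero: G0s2 had 13.83 and 13.18, and Hilpda had 7.82 and 7.02. None of the 11 droplet lipases was 2-fold apart, and Pnpla2 itself had 9.73 and 9.93.

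Cidea, Cidec, Fabp4 and Pparg are also genes of adipocytes, so the adipocyte markers were read beside them. Of 12 listed, 7 entered, and 4 were higher. The defining markers Adipoq (adiponectin; 4.45 and 4.38) and Lep (leptin; 2.81 and 1.23) were under the floor on both arrays. Retn (2.81 and 5.83) was also under the floor on both, and Lipe had 7.07 and 7.04. Car3, which hepatocytes express too, dominated the summed linear signal of the list, 59904 on chow and 61861 on the high-fat array. In bulk liver, more cells of a type and more RNA per cell cannot be told apart, and the part of adipocytes in these values was not tested.

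Proteins that bring fatty acids into the cell and bind them there split in both directions. Of 21 listed, 19 entered, with 3 higher and 1 lower, and the median was 0.05. Cd36, the membrane receptor for long-chain fatty acids, had a signal of 10.64 on chow and 12.68 on the high-fat array, 4.11-fold higher, and its 3 probe sets lay on the same side. Vldlr, a receptor for triglyceride-rich lipoproteins, had 7.52 and 9.39, 3.66-fold higher, in 5 of 5 probe sets. Fabp4, the fatty acid binding protein of adipocytes and macrophages, had 9.45 and 11.19, 3.33-fold higher. The next brightest of its probe sets had 8.61 and 10.01, and a dim one had 4.89 and 6.32, a log2 ratio of 0.15. Fabp5, the epidermal and macrophage relative, had the opposite pattern with 14.75 and 11.41, 10.1-fold lower with both probe sets on that side, while Fabp1, the abundant hepatocyte form, was bright on both arrays. The lipase Lpl, which releases fatty acids from lipoproteins and is low in adult liver, had 9.09 and 9.87, a log2 ratio of 0.78. The transporters Slc27a2 and Slc27a5 and the activating enzyme Acsl5 were within 2-fold.

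**Figure D2:**
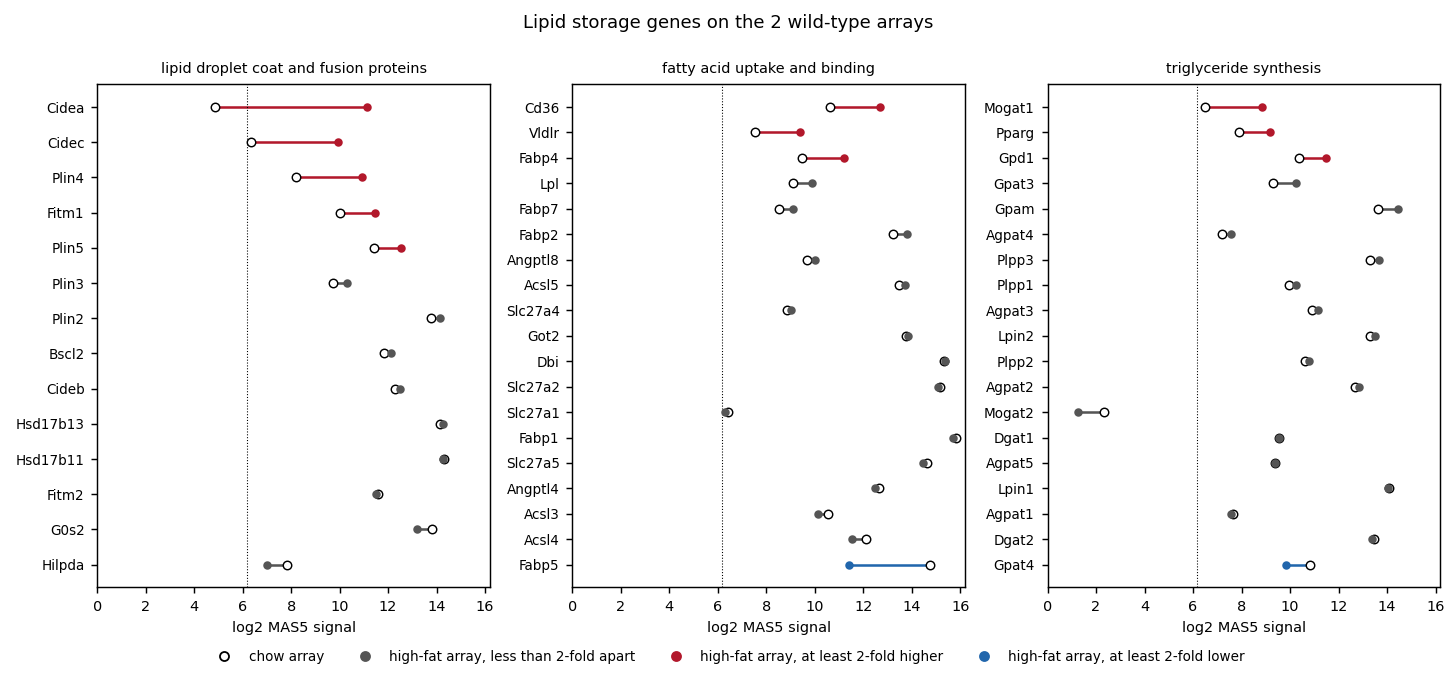
Signal of droplet, fatty acid uptake and triglyceride synthesis genes (log2 MAS5 signal on the x axis, genes in rows) on the chow array (open circles) and the high-fat array (filled circles), sorted by their ratio, with the chow floor of 6.17 as a dotted line. Cidea, Cidec, Plin4, Mogat1 and Cd36 show the longest red lines to the right, and Fabp5 a blue line to the left from 14.75 to 11.41.

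The triglyceride synthesis list had 19 of 21 members entered, 3 higher, 1 lower and a median of 0.22. Mogat1, which acylates monoacylglycerol and is low in lean adult liver, had 6.51 on chow and 8.83 on the high-fat array, 4.99-fold higher. Pparg, the nuclear receptor of fat storage, had 7.91 and 9.17, 2.39-fold higher. Gpd1, which supplies glycerol 3-phosphate, had 10.37 and 11.48, 2.16-fold higher with 3 of 3 probe sets on that side. The initiating acyltransferases did not go together. Gpat4 had 10.84 and 9.83, 2.02-fold lower, although its log2 ratio was -0.55 as the mean of its probe sets, whereas Gpam had 13.64 and 14.44 and Gpat3 had 9.30 and 10.24, both less than 2-fold apart. Dgat1 (9.53 and 9.54) and Dgat2 (13.47 and 13.38), which catalyse the last step, were nearly level.

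Enzymes that build fatty acids from acetyl-CoA showed little difference as a list: 22 of 24 entered, none was higher, 1 was lower and the median was -0.02, which turned to 0.01 under quantile normalization. Elovl6, which extends palmitate to stearate, was the lower member, with 13.69 on chow and 12.46 on the high-fat array, 2.35-fold lower with 3 of 3 probe sets on that side. Acacb, the acetyl-CoA carboxylase that restrains mitochondrial oxidation, had 11.09 and 10.12. The sugar-sensing factor Mlxipl (12.61 and 12.05), its target Pklr (11.57 and 10.89) and fatty acid synthase Fasn (13.75 and 13.26) had lower signals within 2-fold, while Srebf1, the insulin-responsive factor of the pathway, had 12.97 and 13.22. Scd1, the desaturase that makes oleate, was near the top of the range on both arrays at 15.37 and 15.35. Of the 18 elongases and desaturases, none other than Elovl6 was 2-fold apart and the median was 0.20.

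Fatty acid oxidation in mitochondria differed by small amounts that mostly lay on one side. Of 26 genes listed, 22 entered and 20 had a positive log2 ratio, with a median of 0.28, 1 higher gene and 1 lower gene. Fgf21, a hormone that liver secretes in fasting and under nutrient stress, had 7.44 on chow and 8.78 on the high-fat array, 2.52-fold higher. Pdk4, the kinase that shuts off pyruvate oxidation in fasting, had 9.98 and 8.84, 2.21-fold lower. The carriers and enzymes of the pathway itself were bright and within 2-fold. Cpt1a, the entry step, had 13.03 and 13.31, Slc25a20, which carries acylcarnitines across the inner membrane, had 13.18 and 13.56, and Acadm had 14.35 and 14.60. Ppara, the receptor that governs these genes, had 12.08 and 12.51, and the coactivator Ppargc1a had 10.56 and 9.94 in 5 of 5 probe sets.

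In peroxisomes, where very long and branched chains are shortened, 21 of 24 listed genes entered, 2 were higher, none was lower and the median was 0.19. Abcd2, a transporter of very long chain acyl-CoA, had 7.51 and 9.95, 5.44-fold higher with 4 of 4 probe sets on that side. Crat, which makes acetylcarnitine, had 8.503 and 9.62, 2.17-fold higher, with a log2 ratio as low as 0.50 in an alternative. Another of its probe sets was brighter on both wild-type arrays, with 8.89 and 9.80, a log2 ratio of 0.91 that is within 2-fold, and a dim one had 6.73 and 5.91, in the opposite direction. Pex11a, which divides peroxisomes, had 12.22 and 13.07, and Ehhadh, a classical target of Ppara, had 13.81 and 13.58. Omega oxidation was divided by family member, with 11 of 14 entered, 3 higher, 1 lower and a median of -0.10. Cyp4a14, which hydroxylates the end of the fatty acid chain, had 12.86 and 14.32, 2.76-fold higher, while its male-biased relative Cyp4a12a had 12.63 and 11.42, 2.32-fold lower. Vnn1, a pantetheinase that responds to fatty acids, had 12.14 and 13.72, 2.99-fold higher with both probe sets on that side, and Aldh3a2, which oxidises fatty aldehydes, had 12.19 and 13.45, 2.39-fold higher. Cyp4a genes are close copies of each other, and how far their probe sets share signal was not tested.

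Cholesterol synthesis had higher signals in 13 of 19 genes entered from 22 listed, with 3 higher by 2-fold, none lower and a median of 0.37. Hmgcs1, which condenses acetoacetyl-CoA at the head of the pathway, had a signal of 12.18 on chow and 13.80 on the high-fat array, 3.06-fold higher with 4 of 4 probe sets on that side. Msmo1, which removes methyl groups from the sterol ring, had 11.36 and 12.84, 2.79-fold higher. Its other probe set was dim, with 3.08 and 6.33, a log2 ratio of 0.15 from the floor. Idi1, the isoprenoid isomerase, had 11.75 and 13.01, 2.40-fold higher. The next enzymes by ratio, Nsdhl (10.57 and 11.40), Hsd17b7 (10.75 and 11.47), Dhcr7 (10.08 and 10.79), Cyp51 (10.76 and 11.47) and Sqle (9.77 and 10.41), lay on the same side within 2-fold. Mvk (8.06 and 7.83) and Ebp (13.46 and 13.34) did not.

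Genes of this pathway are governed by sterol-responsive factors that bind near the start site, and the promoters of Hmgcs1 and Msmo1, the higher members with a match, are shown for that reason. The window of Idi1, the other higher member, held no match. The windows are the 250 bases before the RefSeq start on GRCm38.p6, written in the direction of transcription, with matches to the sterol-type motif TCACNNCAC, searched on both strands, in capitals. The Hmgcs1 window is chr13:119690101-119690350 on the plus strand with a match that starts 137 bases before the start site, and the Msmo1 window is chr8:64733579-64733828 on the minus strand with a match at 92 bases.
Hmgcs1: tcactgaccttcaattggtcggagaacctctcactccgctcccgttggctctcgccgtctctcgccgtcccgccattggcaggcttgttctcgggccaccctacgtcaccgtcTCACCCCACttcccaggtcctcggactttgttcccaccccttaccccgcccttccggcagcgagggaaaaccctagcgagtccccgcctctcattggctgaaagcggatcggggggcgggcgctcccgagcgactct
Msmo1: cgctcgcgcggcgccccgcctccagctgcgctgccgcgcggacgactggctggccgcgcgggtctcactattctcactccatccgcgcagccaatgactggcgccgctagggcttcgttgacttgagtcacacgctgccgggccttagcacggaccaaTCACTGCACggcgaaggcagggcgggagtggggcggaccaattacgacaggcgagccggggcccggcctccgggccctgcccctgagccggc
The motif occurred in 3.11% of all 32851 windows of the same length. Among the 16 cholesterol genes with a window it occurred in 4, which were Hmgcs1, Msmo1, Dhcr7 and Hsd17b7. A match describes the letters and is not evidence of binding.

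Genes that sense, take up and export sterols had 15 of 20 members entered, 1 higher, none lower and a median of -0.04. Insig2, a membrane protein that holds sterol-responsive factors in the endoplasmic reticulum, had 11.71 on chow and 12.78 on the high-fat array, 2.10-fold higher, with a log2 ratio as low as 0.94 in an alternative. Abcg5 (12.57 and 11.65) and Abcg8 (a log2 ratio of -0.80), the paired transporters that excrete sterols into bile, were lower by less than 2-fold. Apolipoproteins were nearly level, with 18 of 19 entered, 1 higher, 1 lower and a median of -0.04 that turned to 0.02 under quantile normalization. Apoa4, which is carried on triglyceride-rich particles, was the exception with 13.33 and 14.79, 2.76-fold higher with both probe sets on that side, and Apobec1, the enzyme that edits the Apob transcript, had 9.65 and 8.53, 2.16-fold lower. Apob itself had 15.19 and 15.21, and the lipid transfer protein Mttp had 13.04 and 12.88.

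Bile acid synthesis had all 20 listed genes entered, with 2 higher, none lower and a median of -0.01, which turned to 0.05 under quantile normalization. Both higher genes are the enzymes that set the amount and kind of bile acids. Cyp7a1, the rate-limiting step of the classical pathway, had 11.32 on chow and 12.49 on the high-fat array, 2.25-fold higher, against 9.07 and 9.68 on its dimmer probe set. Cyp8b1, which directs the product to cholic acid, had 10.83 and 12.54, 3.28-fold higher. Cyp7b1, the male-biased enzyme of the alternative pathway, had 14.03 and 13.57. The repressor Nr0b2 had 9.40 and 10.16, and the bile acid receptor Nr1h4 had 11.94 and 12.22.

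Among bile acid and organic ion transporters, 27 of 30 entered, 4 were higher and 1 was lower, with a median of 0.05. The higher genes were Slc22a29 and Slc22a27, described with the sex-biased genes below, Slco1a4, an uptake carrier of organic anions (10.94 and 12.31, 2.59-fold), and Abcb1a, a drug efflux pump (7.61 and 8.93, 2.50-fold). Slco1a1, the male-biased relative of Slco1a4, had 13.72 and 12.67, 2.07-fold lower with both probe sets on that side. The main bile acid importer Slc10a1 (14.76 and 14.40) and exporter Abcb11 (12.99 and 12.83) were within 2-fold.

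Growth hormone signalling was the list with the lowest median among the pathway lists, -0.48, and 15 of its 17 entered genes had a negative log2 ratio. Of 18 listed, 5 were lower and none was higher. Lists and members were chosen with earlier results of these data known, which limits any ranking of the list medians. Growth hormone binds Ghr, activates Jak2 and STAT5, and turns on Igf1 together with feedback inhibitors of the SOCS family. Socs2, the inhibitor most closely tied to this hormone, had a signal of 12.90 on chow and 9.01 on the high-fat array, 14.8-fold lower with 5 of 5 probe sets on that side. Cish, another STAT5-driven inhibitor, had 10.82 and 8.31, 5.69-fold lower. Socs3, which also answers to leptin and interleukin 6, had 10.92 and 8.63, 4.91-fold lower with 3 of 3 probe sets on that side. All of these feedback genes were bright on chow and well above the floor on high-fat diet. Onecut1, a hepatocyte factor that growth hormone controls, had 10.88 and 7.98, 7.43-fold lower, and the binding protein Igfbp2 had 13.71 and 12.64, 2.10-fold lower. The components upstream were closer: Ghr had 14.83 and 14.52, Stat5b 9.33 and 9.13, and the hormone product Igf1 14.32 and 13.81, with its 4 probe sets on the same side. Stat5a had 7.56 and 8.56, just within 2-fold on the higher side.

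Since the SOCS genes and their relatives are targets of STAT factors, the list was searched, on both strands, for the palindrome TTCNNNGAA in the 250 bases before the start. It occurred in 3 of 15 genes with a window, which were Bcl6, Igfals and Socs3, and in 7.02% of all 32851 windows. Socs3 is shown because it was both lower and matched. Its window is chr11:117969367-117969616 on the minus strand of GRCm38.p6, from RefSeq, and the capitals mark the match, which starts 154 bases before the start site.
Socs3: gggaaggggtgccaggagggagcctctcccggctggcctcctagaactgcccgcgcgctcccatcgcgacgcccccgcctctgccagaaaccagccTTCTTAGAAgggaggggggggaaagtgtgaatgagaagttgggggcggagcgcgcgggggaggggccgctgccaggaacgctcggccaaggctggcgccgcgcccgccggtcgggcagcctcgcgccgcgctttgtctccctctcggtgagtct
Cish was not among the 3 genes with a match. Only 15 of the 17 entered genes had a window, so a gene without a match may not have been searched.

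Genes known to differ between male and female liver lay apart in opposite directions on these arrays of males. In the male-biased list, 21 of 29 entered, 4 were lower, none was higher and the median was -0.30. Hsd3b5, a steroid dehydrogenase found almost only in male liver, had a signal of 13.24 on chow and 7.37 on the high-fat array, 58.6-fold lower and farther apart than any other gene measured on both arrays. Ugt2b38, a glucuronosyltransferase, had 9.72 and 7.23, 5.61-fold lower. Cyp4a12a and Slco1a1 are given above. Bright male-biased genes such as Cyp2d9 (14.57 and 14.54) and Mup3, a urinary protein (14.64 and 14.36), were within 2-fold. Elovl3, which is also male-biased, lay on the other side with 11.56 and 12.10.

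In the female-biased list, 22 of 31 entered, 10 were higher and 1 was lower, and the median of 0.94 was the highest among the pathway lists. The limit given above for ranking the list medians holds here too. Cyp2b9, a cytochrome P450 that adult male liver normally has at low level, had 7.97 and 11.82, 14.4-fold higher, and Cyp2b13, its neighbour in the genome, had 5.76 and 8.9985, at least 7.08-fold higher. The organic anion carriers Slc22a29 and Slc22a27 had 7.79 and 11.26 and 6.88 and 9.77, which are 11.1-fold and 7.42-fold. Cyp2b and Slc22a genes lie in clusters of close copies, so their probe sets may share signal. Other higher members were Abcd2 and Cyp4a14, given above, Hao2, which oxidises hydroxy acids (8.04 and 9.35, 2.49-fold), Nipal1, a magnesium transporter (8.38 and 9.46, 2.12-fold), and Atp6v0d2, a proton pump subunit also expressed by macrophages (6.71 and 8.16, 2.73-fold, with a log2 ratio as low as 0.73 in an alternative). The lower member was Hamp2, a hepcidin, with 14.16 and 12.94, 2.33-fold lower. The female-biased factor Cux2 had 7.65 and 8.59 and Cyp17a1, a steroid hydroxylase, had 8.44 and 9.38, both within 2-fold. Sult1e1, which sulfates oestrogens, was near the floor at 5.71 and 6.43.

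**Figure D3:**
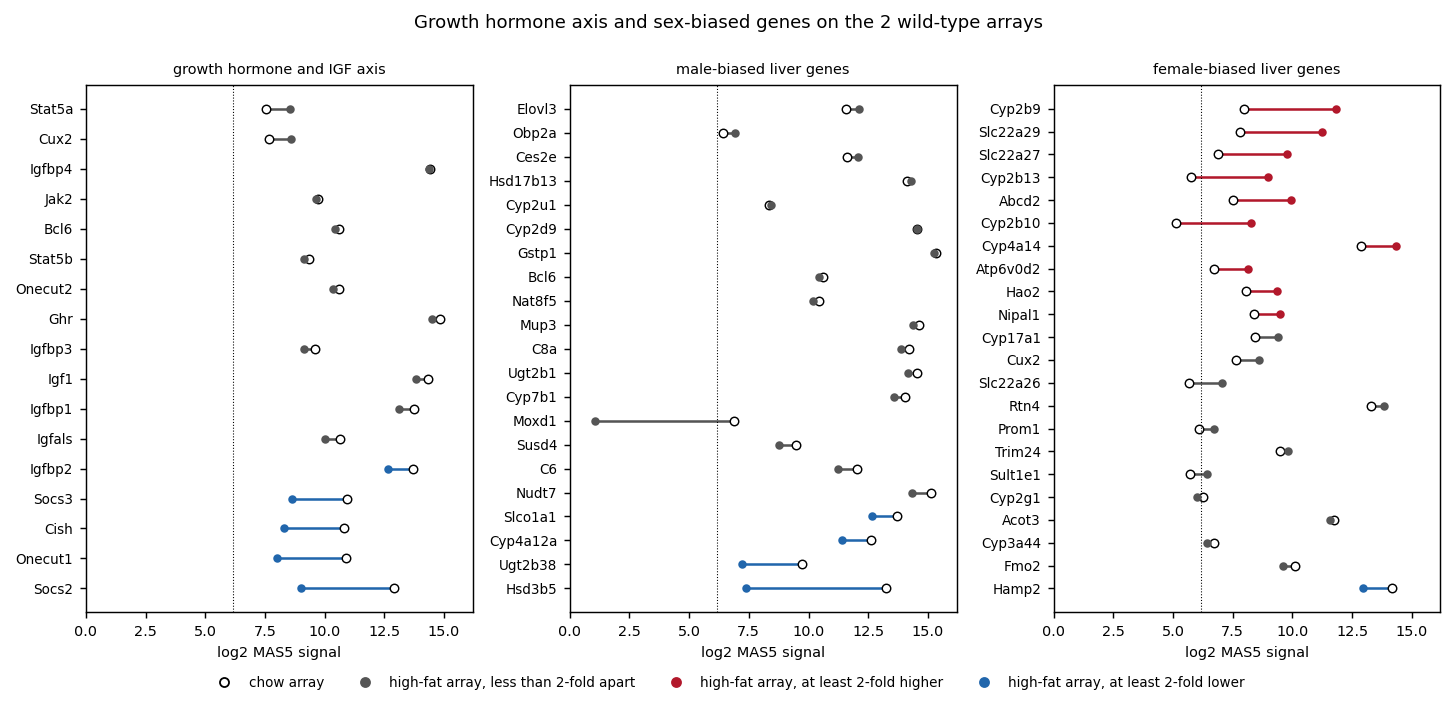
Signal of growth hormone axis, male-biased and female-biased genes (log2 MAS5 signal on the x axis, genes in rows) on the chow array (open circles) and the high-fat array (filled circles), with the chow floor of 6.17 dotted. In the left and middle panels blue lines mark 5 and 4 genes at least 2-fold lower, led by Socs2 and Hsd3b5, and in the right panel red lines mark 10 genes at least 2-fold higher, led by Cyp2b9.

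Genes of drug metabolism were listed by receptor, and the part of each receptor in the values was not tested. For CAR and PXR, the sensors of foreign compounds and bile acids, 13 of 19 listed genes entered, 4 were higher, none was lower and the median was 0.50. Cyp2b9 and Cyp2b13 were among these and were also counted with the female-biased genes above. The others were Cyp2b10, the standard CAR target (5.11 and 8.25, at least 4.23-fold, with a log2 ratio as low as 0.88 in an alternative), and Gstm3, a glutathione transferase (11.10 and 12.46, 2.57-fold, as low as 0.90 in an alternative). The receptors themselves, Nr1i3 (10.81 and 11.46) and Nr1i2 (10.26 and 10.76), were within 2-fold, and so was Cyp3a11, the standard PXR target, at 15.28 and 15.26. Among 27 other Cyp2 genes entered of 35, none was higher and 2 were lower, with a median of -0.06. Cyp2c39 had 10.39 and 7.86, 5.75-fold lower, and Cyp2c70, which makes the muricholic acids of mice, had 14.70 and 13.02, 3.20-fold lower. Cyp2e1, which metabolises ethanol and ketones, had 15.22 and 15.21.

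Ahr, the receptor for dioxin-like compounds, was itself higher with 10.82 and 12.68, 3.63-fold. Its other probe set was dim, with 6.10 and 6.80, a log2 ratio of 0.63 that is within 2-fold. Its target Cyp1a2 had 13.78 and 13.54 and Cyp1a1 was near the floor at 6.15 and 6.79. Ahr was the only gene 2-fold apart among the 7 that entered from the 11 listed for the receptor and its targets. Of 34 glutathione transferases and NRF2 targets, 31 entered and 30 reached the floor on a wild-type array, 25 of these with a positive log2 ratio, and 3 were higher and none was lower, with a median of 0.17. Cbr3, a carbonyl reductase, had 6.58 and 8.19, 3.05-fold higher. Srxn1, which repairs peroxiredoxins, had 8.76 and 9.79, 2.05-fold higher, with a log2 ratio as low as 0.45 in an alternative. Nqo1 had 7.88 and 8.58, and Gclc, the limiting enzyme of glutathione synthesis, had 12.87 and 13.55. Among 25 sulfotransferases, glucuronosyltransferases and carboxylesterases entered of 37, none was higher and 2 were lower, Ugt2b38 and its close copy Ugt2b37 (8.79 and 7.15, 3.10-fold). Ces5a, a carboxylesterase outside that list, had 4.42 and 7.73, at least 2.94-fold higher, with a log2 ratio as low as 0.79 in an alternative.

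Insulin and leptin signalling had 24 of 25 genes entered, 5 lower, none higher and a median of -0.12. Lepr, the leptin receptor, whose soluble form is made by liver, had a signal of 11.31 on chow and 7.95 on the high-fat array, 10.3-fold lower with 3 of 3 probe sets on that side. Irs2, an adaptor of the insulin receptor, had 8.495 and 7.02, 2.79-fold lower. Socs2, Socs3 and Igfbp2 were the other lower members. The insulin receptor Insr (11.56 and 11.55) and Irs1 (10.65 and 10.30) were within 2-fold. Egfr, the receptor for epidermal growth factor, was in none of the lists and was one of the brightest genes that lay apart. It had 14.05 and 11.64, 5.32-fold lower with 6 of 6 probe sets on that side.

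Glucose production, glycolysis and glycogen had 23 of 29 genes entered, 1 higher, 1 lower and a median of -0.0048, which was 0.06 under quantile normalization. The exceptions are both targeting subunits of the phosphatase that activates glycogen synthase. Ppp1r3c had 10.49 and 12.83, 5.07-fold higher with both probe sets on that side, and Ppp1r3g, which is tied to fasting and feeding, had 10.21 and 8.47, 3.35-fold lower. The enzymes of glucose output and storage were nearly level: Pck1 had 14.85 and 14.83, G6pc 13.68 and 13.46, and the glycogen synthase Gys2 12.95 and 12.85. Among 27 of 29 mitochondrial carriers entered, Slc25a30 was the only member 2-fold apart, with 13.23 and 10.11, 8.74-fold lower with 4 of 4 probe sets on that side. The respiratory chain had the narrowest range, with 31 of 33 genes between -0.17 and 0.15 and none 2-fold apart.

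Clock genes differed at a few positions of the loop. Of 22 listed, 19 entered, 1 was higher and 2 were lower, with a median of -0.05, which turned to 0.02 without probe sets ending in _x_at, _s_at or _a_at. Arntl, which with Clock drives the transcription of the loop, had 7.83 on chow and 6.13 on the high-fat array, under the floor, at least 3.11-fold lower. Nfil3, a repressor of the output genes, had 11.03 and 9.45, 2.99-fold lower. Ciart, a repressor of the Clock and Arntl complex, had 7.32 and 9.67, 5.08-fold higher. Genes that run in parallel with Ciart in the daily cycle were closer, with Dbp at 12.52 and 12.96, Hlf at 9.49 and 10.46 and Per3 at 9.27 and 9.41, and Nr1d1 was under the floor on both arrays. The Ciart promoter is shown because it holds several E-boxes, the element CACGTG that Clock and Arntl bind. The window is chr3:95882229-95882478 on the minus strand of GRCm38.p6, from RefSeq, and its matches, in capitals, start 116, 58 and 44 bases before the start site.
Ciart: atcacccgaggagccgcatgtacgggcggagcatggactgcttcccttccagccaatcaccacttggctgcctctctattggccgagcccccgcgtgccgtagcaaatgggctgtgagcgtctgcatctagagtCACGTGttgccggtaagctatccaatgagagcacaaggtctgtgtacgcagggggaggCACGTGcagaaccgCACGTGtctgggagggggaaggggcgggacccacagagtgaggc
CACGTG occurred in 6.02% of all 32851 windows on either strand, and in 4 of the 16 clock genes with a window, which were Ciart, Cry1, Per1 and Tef. The matches shown in these windows did not overlap another of the motifs searched.

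Immediate early genes, which respond within minutes to growth factors and handling, had 30 of 31 entered, 1 higher, 3 lower and a median of -0.13. Gadd45g, a stress and growth arrest gene, had 12.06 and 9.81, 4.74-fold lower. Myc, the growth regulator, had 9.89 and 7.66, 4.70-fold lower, and the nuclear receptor Nr4a1 had 8.80 and 7.61, 2.28-fold lower. Gadd45b was opposite to its relative with 6.40 and 7.89, 2.81-fold higher with 3 of 3 probe sets on that side. The usual signs of an acute stimulus, Fos (8.30 and 8.62) and Egr1 (10.35 and 10.51), were within 2-fold.

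Genes of the unfolded protein response and the integrated stress response, read in a single list, lay mostly below zero. Of 33 genes entered from 34, 23 had a negative log2 ratio and 10 a positive one. Of these, 2 were lower and 1 was higher, with a median of -0.24. Creld2 and Sdf2l1, small proteins of the endoplasmic reticulum that the unfolded protein response turns on, had 12.01 and 10.74 and 10.93 and 9.74, which are 2.41-fold and 2.28-fold lower. Manf (13.01 and 12.02), Dnajb9 (13.56 and 12.63) and the factor Xbp1 (14.41 and 13.88, in 4 of 4 probe sets) were lower within 2-fold, and the chaperone Hspa5 had 14.54 and 14.27. The higher gene was Ddit4, an inhibitor of mTORC1 that several stresses turn on, with 9.41 and 11.04, 3.09-fold. Genes of the integrated stress response were divided. Atf5 had a log2 ratio of 0.84, Asns 0.47 and Ddit3 0.39, while Atf4 had -0.32, Ppp1r15a -0.47 and Atf3 -0.66. Heat shock proteins and metallothioneins had 22 of 24 entered, none higher, 1 lower and a median of -0.15. Hspa1a, a cytosolic chaperone, had 9.89 and 8.37, 2.87-fold lower, while Hspa1b, its near-identical copy, had 14.60 and 14.10. Metallothioneins Mt1 (12.31 and 13.12) and Mt2 (10.93 and 11.37) were within 2-fold.

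Acute phase and iron genes had 31 of 33 entered, 4 higher, 1 lower and a median of 0.01, which turned to -0.0044 when the arrays were scaled to equal medians. Lcn2, a protein that binds bacterial iron carriers, had 7.90 and 10.60, 6.50-fold higher. Saa2, a serum amyloid, had 10.08 and 11.67, 3.02-fold higher, and its neighbour Saa1 had 12.43 and 13.41. The orosomucoids Orm2 (9.19 and 10.52, 2.52-fold) and Orm3 (6.68 and 7.97, 2.44-fold) were also higher. The iron hormone Hamp had 14.94 and 14.17, next to Hamp2 above. Of 32 interferon and peptide presentation genes entered from 36, Ubd, a ubiquitin-like protein turned on by interferon, was the only member 2-fold apart, with 5.91 and 8.43, at least 4.76-fold higher. Among 26 cytokines, chemokines and NF-kB genes entered of 33, Il1b had 8.74 and 7.33, 2.65-fold lower, and none was higher. Of 51 complement, coagulation and serpin genes 39 entered, 32 of them on the negative side, with none higher, 2 lower and a median of -0.15: C8b, a subunit of the membrane attack complex, at 12.45 and 10.72, 3.32-fold lower, and Serpina12 at 13.35 and 12.33, 2.04-fold lower.

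Matrix genes were higher in part. Of 35 listed, 29 entered, 6 were higher, none was lower and the median was 0.38. Col3a1, a fibrillar collagen, had a signal of 9.92 on chow and 11.56 on the high-fat array, 3.12-fold higher, and Col1a2 had 8.96 and 10.51, 2.92-fold higher, both with 2 of 2 probe sets on that side. Col1a1, its partner chain, had 5.46 and 7.27, at least 2.14-fold higher. Other higher members rested on dim or divided probe sets. Mmp2, a gelatinase, had 6.35 and 7.81 (2.75-fold) but a log2 ratio of 0.27 on its other probe set, and Col5a1 had 6.83 and 7.96 (2.18-fold) but 7.33 and 7.42 on another. Mmp12, the macrophage elastase, had 3.07 and 7.70, at least 2.87-fold higher. Of 15 stellate cell markers entered, which mark the cells that make most of these collagens, 14 had a positive log2 ratio and the summed linear signal was 28556 on chow and 34906 on the high-fat array. Reln (12.12 and 12.35), Lrat (7.80 and 8.36) and Dcn (13.24 and 13.52) were within 2-fold, and Des had 7.52 and 5.49, at least 2.51-fold lower. The part of these cells in the collagen values was not tested.

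Cytoskeletal genes mostly had positive log2 ratios, and most of them were within 2-fold. Of 35 listed, 30 entered and 29 reached the floor on a wild-type array, 28 of these with a positive log2 ratio, with 6 higher, none lower and a median of 0.50. Tpm2, a tropomyosin of actin filaments, had 8.86 and 11.01, 4.45-fold higher with 3 of 3 probe sets on that side. The calcium-binding partners Anxa2 (9.27 and 10.77, 2.83-fold) and S100a10 (12.20 and 13.46, 2.40-fold, as low as 0.98 in log2 in an alternative) were both higher. Tubb2a, a tubulin, had 10.00 and 11.93, 3.80-fold higher, against 6.91 and 7.58 on its other probe set, and Tubb6 had 6.95 and 8.07, 2.17-fold higher, and as low as 0.60 in log2 in an alternative. Krt8 (11.86 and 12.96, 2.16-fold) and its pairing partner Krt18 (11.80 and 12.50), the keratins of hepatocytes, lay on the same side. Actb had 14.60 and 14.66. Outside the lists, Lgals1, a galectin of mesenchymal and immune cells, had 11.26 and 13.28, 4.04-fold higher.

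Cell cycle genes had 27 of 33 entered, 5 higher, none lower and a median of 0.43, at signals mostly near the floor. Mcm2, a subunit of the replicative helicase, had 7.59 and 9.60, 4.03-fold higher, but 6.49 and 7.02 on its other probe set. Mcm5 had 6.997 and 8.32, 2.49-fold higher, with a log2 ratio as low as 0.17 in an alternative. Ccnd1, the cyclin that starts the cycle, had 10.08 and 11.18, 2.14-fold higher with 3 of 3 probe sets on that side, with a log2 ratio as low as 0.88 in an alternative. Mitotic genes were under the floor on chow, with Cdk1 at 6.01 and 7.40 (at least 2.34-fold higher), Top2a at 5.57 and 7.03 and Mki67 at 5.12 and 6.80. Cdkn1a, the p53 target that halts the cycle, had 8.19 and 10.01, 3.54-fold higher with both probe sets on that side, and the rest of the p53 and apoptosis list, 29 genes entered, held no other member 2-fold apart. Outside the lists, E2f8, a repressor of cell cycle genes in polyploid hepatocytes, had 9.75 and 7.41, 5.05-fold lower.

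Hepatocyte transcription factors had 29 of 34 entered, 5 lower, none higher and a median of -0.12. Besides Onecut1, the lower members were the forkhead factors Foxa1 (11.17 and 9.89, 2.44-fold) and Foxa2 (11.19 and 9.87, 2.48-fold), the homeobox factor Hhex (12.82 and 11.69, 2.19-fold), and the oestrogen receptor Esr1 (10.78 and 9.72, 2.08-fold). Foxq1, another forkhead factor but in none of the lists, had 10.70 and 8.05, 6.28-fold lower. Hnf4a was within 2-fold, as given above, and Cebpa had 12.00 and 11.58. Of 38 urea cycle and amino acid genes entered, Got1, the cytosolic aspartate aminotransferase, was the only member 2-fold apart (13.24 and 12.01, 2.35-fold lower). Nnmt, which methylates nicotinamide, had 11.79 and 9.90, 3.71-fold lower and was alone among 26 methionine and methyl-group enzymes. In the retinoid list, the receptors Rarg (7.71 and 4.92, at least 2.87-fold lower) and Rxrg (6.86 and 8.10, 2.38-fold higher) were the members apart among 23. Of 28 ceramide and sphingolipid genes and 24 zonation genes entered, none was 2-fold apart, and Cers2 had 12.46 and 12.25.

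**Figure D4:**
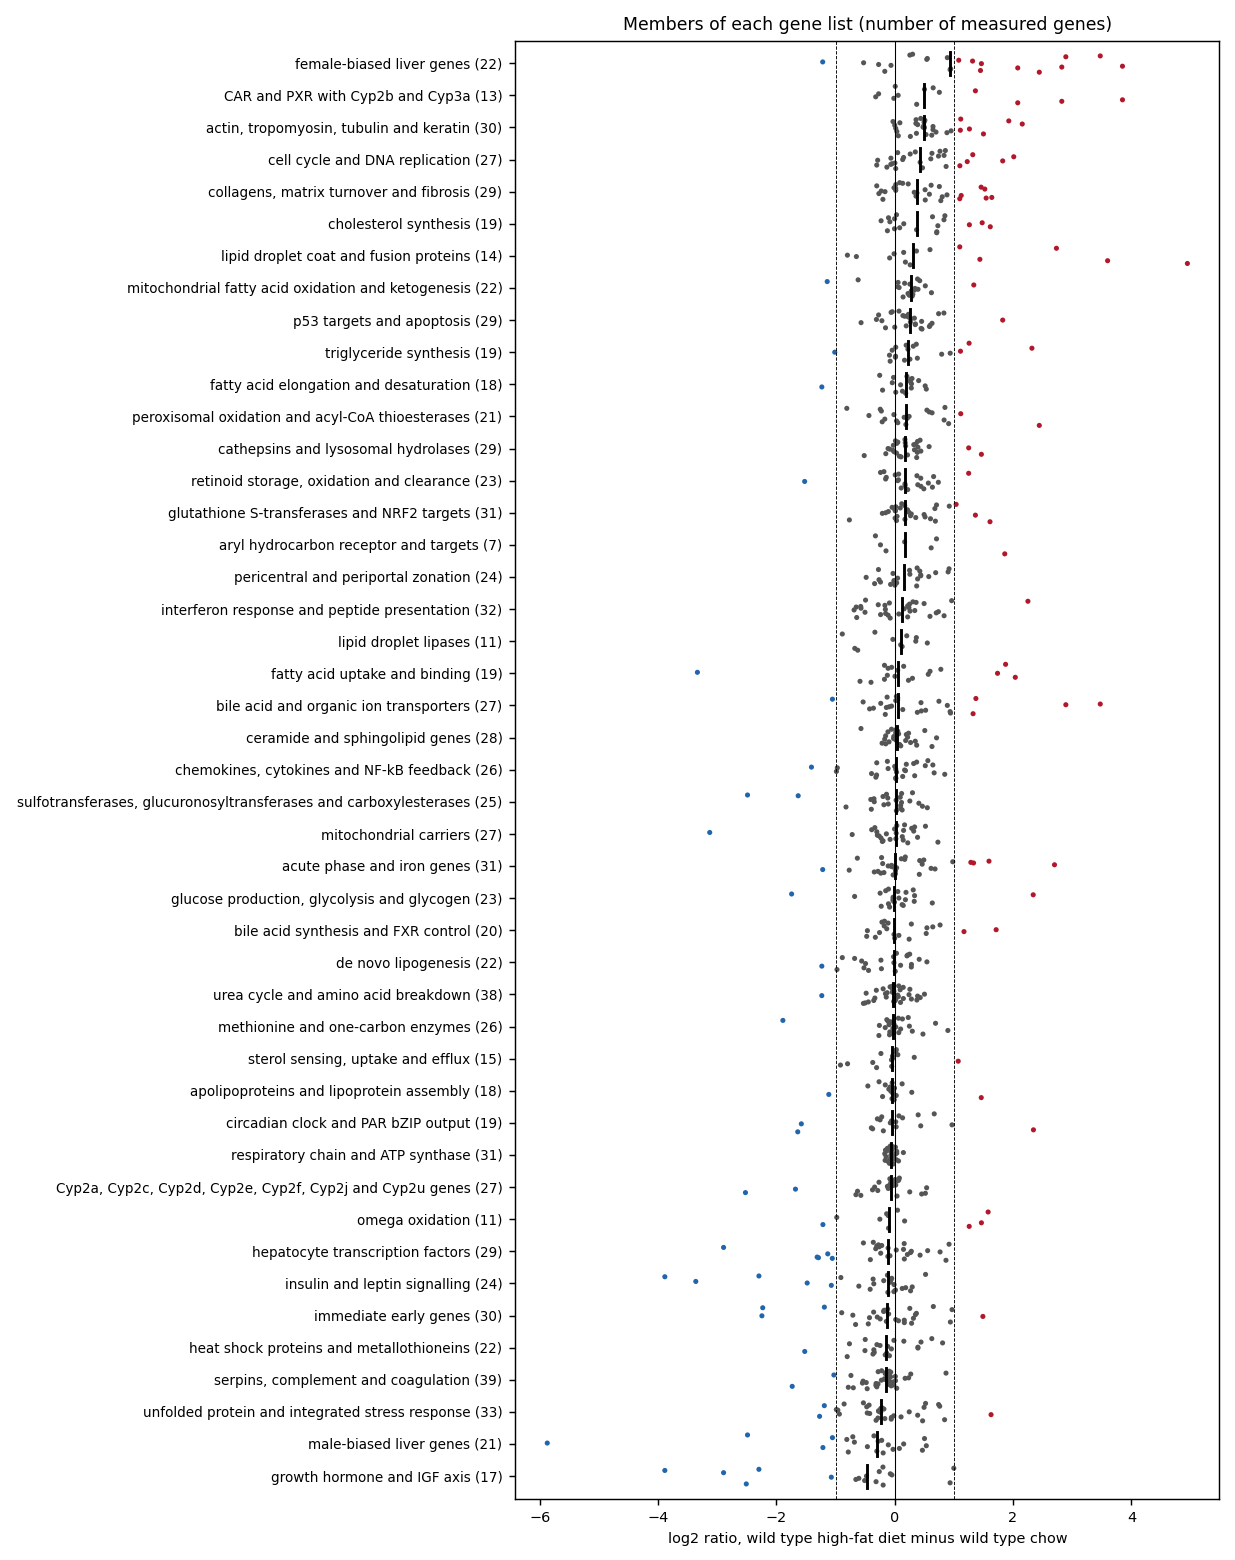
Log2 ratio of high-fat diet to chow in wild type (x axis) for each measured member of the pathway lists (rows, with the number of genes), where the short black bar is the list median and dashed lines mark 2-fold. Female-biased genes have the highest median, 0.94, growth hormone and IGF genes the lowest, -0.48, and respiratory chain genes the narrowest range. The lists were chosen with earlier results of these data known.

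Markers of the other liver cells and of tissues that could be carried over were read for the whole list. Of 15 hepatocyte markers 12 entered, all within 2-fold at a negative log2 ratio, the lowest -0.35. Their median was -0.12, and -0.06 under quantile normalization, so these small ratios depend on how the arrays are scaled. Their summed linear signal was 381701 on chow and 348835 on the high-fat array. Kupffer cell markers had 25 of 26 entered and none 2-fold apart, with Clec4f at 10.66 and 10.60, Adgre1 at 9.81 and 9.69 and a summed signal of 48889 and 50229. Their log2 ratios were positive in 14 and negative in 11, from -0.92 to 0.41. Genes of resident cells did not all go together, with Marco at -0.92, Timd4 at -0.71, Cd163 at -0.41, Cd5l at -0.17, Clec4f at -0.06 and Folr2 at 0.28. In the list of genes known from lipid-laden macrophages, 11 of 14 entered, Fabp5 was lower as given above and 3 were higher, Mmp12, Atp6v0d2 and Gpnmb (5.96 and 7.42, at least 2.38-fold), while Trem2, its defining gene, was under the floor on all arrays at 5.55 and 5.97 on those of wild type. Lgals3 had 8.93 and 9.83. Endothelial markers had 22 of 22 entered and 1 higher, Lyve1, a receptor of sinusoids (9.35 and 10.37, 2.02-fold, and as low as 0.91 in log2 in an alternative), beside Stab2 at 10.13 and 10.57.

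Lymphocyte markers did not all go together. Of the 7 B and plasma cell markers entered, 6 had a positive log2 ratio and 1 a negative one, with a median of 0.55. Jchain (8.28 and 9.73, 2.73-fold) and Ighm (10.96 and 12.41, 2.72-fold with 5 of 5 probe sets on that side), which are genes of antibody-making cells, were higher. Cd22 (a log2 ratio of 0.75), Cd79b (0.55), Ms4a1 (0.42) and Mzb1 (0.29) were positive within 2-fold, while Igha had 9.19 and 8.33. The summed linear signal of the 7 was 3360 on chow and 7253 on the high-fat array, and Ighm made up most of it on both. Themis, a protein of T cell development, had 6.80 and 9.46, 6.35-fold higher, and its other 3 probe sets were under the floor on both arrays. Of the T cell receptor genes, Cd3e (6.14 and 5.47) was under the floor on both arrays, Cd3d (3.88 and 6.28) was under it on chow, and Cd3g (7.11 and 5.16) was under it on the high-fat array. Neutrophil markers had 5 of 13 entered, dendritic cell and MHC class II markers 9 of 13 and erythroid markers 2 of 9, with none 2-fold apart. Of the cholangiocyte markers, Krt19 had 5.79 and 6.21, Tff3, a secreted trefoil peptide, had 8.38 and 4.52, at least 4.56-fold lower, and Cd24a had 7.72 and 8.79, 2.09-fold higher, and as low as 0.87 in log2 in an alternative. Acinar and muscle markers had no member 2-fold apart, and Mylpf, Acta1 and Ckm of muscle had signals of 6.99 or less. The part of any of these cells in the values given here was not tested beyond these signals.

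**Figure D5:**
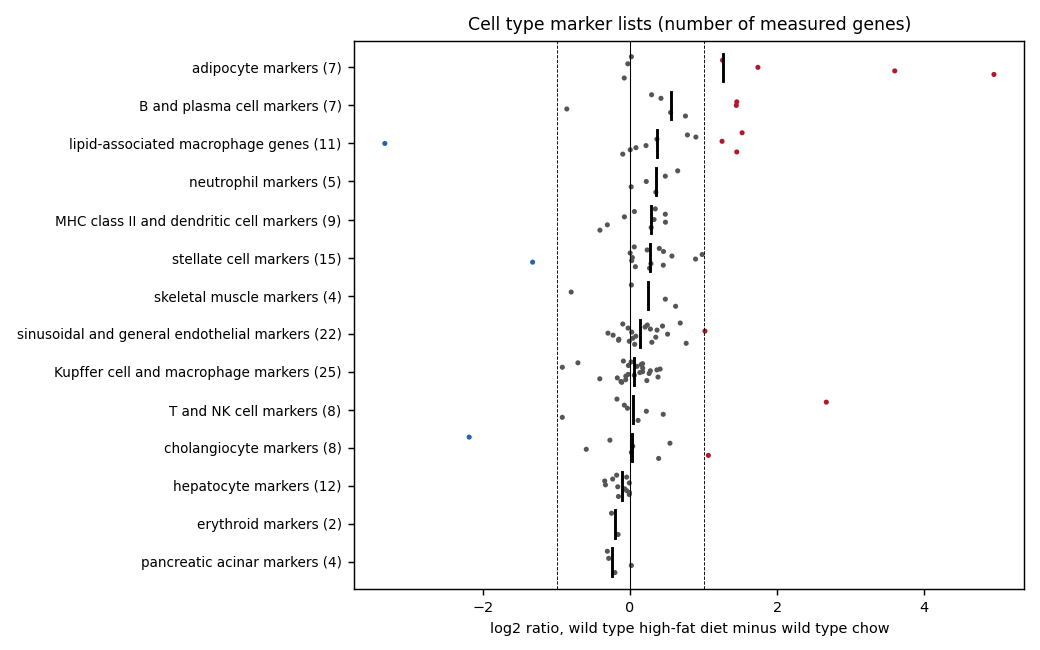
Log2 ratio of high-fat diet to chow in wild type (x axis) for each measured member of the cell type marker lists (rows, with the number of genes), with list medians as black bars and dashed lines at 2-fold. Kupffer cell markers lie within 2-fold, hepatocyte markers lie just below zero, and the adipocyte list is set apart by Cidea, Cidec, Fabp4 and Pparg.

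Several of the genes farthest apart belonged to none of the lists. Higher were Ly6d, a lipid-anchored surface protein (6.31 and 9.06, 6.72-fold), Rad51b, a repair protein (7.70 and 10.41, 6.54-fold), and Arrdc2, an arrestin-domain adaptor (7.13 and 9.77, 6.22-fold). Snai2, a zinc finger factor of epithelial plasticity, had 8.14 and 10.17, 4.10-fold higher, and Depp1, a target of FOXO factors, had 9.56 and 11.61, 4.15-fold higher. Among bounds, Zbtb7b, a zinc finger factor, was at least 4.33-fold higher (6.09 and 8.29) and Defb1, a defensin, at least 4.26-fold higher (5.76 and 8.27). Tmem45b, a membrane protein (5.92 and 8.17, at least 3.97-fold), Slc8a1, a sodium and calcium exchanger (6.166 and 7.93, at least 3.37-fold), and Kbtbd11 (4.62 and 7.79, at least 3.06-fold) were also higher. On the lower side, Serpina4-ps1, a transcribed serpin pseudogene, had 14.30 and 10.29, 16.1-fold lower with 3 of 3 probe sets on that side. Phlda1, a pleckstrin-homology protein, had 14.31 and 11.51, 6.93-fold lower. Rgs3, a regulator of G protein signalling, had 9.88 and 6.99, 7.42-fold lower with 3 of 3 probe sets on that side. Abhd1 (9.37 and 6.83, 5.81-fold) and Cdc42ep5, an effector of the GTPase Cdc42 (9.62 and 7.41, 4.63-fold), were also lower. Leng9 was at least 4.39-fold lower by its brightest probe set, 8.33 and 5.61, but 1 of its 2 probe sets that reached the floor on a wild-type array went that way. Tchh, a protein of hair follicles (8.13 and 5.70, at least 3.82-fold), Btbd19 (7.98 and 6.03, at least 3.44-fold) and Ikzf4, an Ikaros family factor (7.88 and 5.22, at least 3.23-fold), were lower. B3galt6, a galactosyltransferase (7.78 and 5.60, at least 3.01-fold), and Dusp8, a phosphatase of MAP kinases (7.72 and 5.99, at least 2.89-fold), were lower too. Their log2 ratios were -0.58 and -0.68 in the alternatives nearest to zero. Another B3galt6 probe set had 5.98 and 6.61, a log2 ratio of 0.44 in the opposite direction.

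A second reading of the same transcripts, on the same 2 arrays, came from second probe sets. Of the 266 higher genes, 104 had another probe set that reached the floor on a wild-type array. In 93 of these it had the same sign, and in 38 it was at least 2-fold higher. The median log2 ratio of the 104 was 0.87, against 1.24 on the brightest. Of the 155 lower genes, 59 had another. In 48 it had the same sign, and in 25 it was at least 2-fold lower, with a median over the 59 of -0.79 against -1.31. The genes were picked by the ratio of the brightest probe set, which by itself favours a larger median there. Over all 5261 genes with both probe sets at the floor or above on a wild-type array, 66.8% had the same sign. That set was not limited to genes 2-fold apart.

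The arrays labelled LASS2-/- give the same diet ratio without sharing an array with it. Cers2, the gene targeted, had a signal of 12.32 on each of them, against 12.46 and 12.25 in wild type, so its level did not check the labels, and the position of its probe set relative to the deletion is not known here. Between the arrays labelled LASS2-/-, the high-fat array was at least 2-fold higher in 3.11% of genes and 2-fold lower in 1.89%. Over the 11952 genes that reached the floor on at least 1 of these arrays, 51.6% had a positive ratio and 48.4% a negative one. Of the 266 genes higher in wild type, 262 reached that floor, 231 had a positive ratio there, 116 were 2-fold higher and 2 were 2-fold lower. Of the 155 genes lower in wild type, 154 reached it, 133 had a negative ratio there, 72 were 2-fold lower and 3 were 2-fold higher. The medians of those that reached it were 0.94 against 1.26 in wild type for the higher genes, and -0.96 against -1.26 for the lower genes. These genes were picked by their wild-type ratio, which by itself favours a larger wild-type median. The medians therefore do not compare the size of the diet ratio between the genotypes. Cidea had a log2 ratio of 4.95 in wild type and 5.53 between the arrays labelled LASS2-/-, Cidec 3.60 and 3.15, Cyp2b9 3.85 and 2.91, Hsd3b5 -5.87 and -4.38, and Lepr -3.36 and -4.22. Wider apart were Ciart at 2.34 and 0.13, Ighm at 1.44 and -0.08, Apoa4 at 1.46 and 0.22, and Cyp2c39 at -2.52 and 0.64. The difference between the genotypes was not tested.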

How the data were processed

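Total RNA of liver was labelled with a 3' IVT kit and hybridised to 1 array per group, per the labels' protocols. The authors deposited log2 signals, made with MAS5 per the submitters' processing notes; its version and scaling target are not stated there. The 45037 probe sets were named through the platform annotation and RefSeq genes of GRCm38.p6: 34945 had a single symbol, 932 several, which name no gene here, and 9160 none. A probe set entered at or above the array median on at least 1 of 4 arrays, the brightest by its mean over the 4 arrays represented its gene, and each array was floored at its median. Ratios are high-fat diet minus chow, and 2-fold was the threshold. With 1 array per group and 0 residual degrees of freedom no test was possible, and whether an array held 1 mouse or a pool is not stated.

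Genes named are the 20 largest differences measured per direction, the 10 largest bounds per direction, and members of 59 lists of 1307 genes, 1087 of them entered, whereby genes in several lists count in each; clone names were left out, and those printed from a list were picked after their values were seen. Members and lists were chosen with earlier results of these data known. The 8 alternatives were a floor at the 25th percentile, another scaling (quantile or equal medians), no filter, entry from the wild-type arrays alone, the mean of a gene's probe sets, leaving out probe sets ending in _x_at, _s_at or _a_at, and 1.5-fold. Where the text gives a log2 ratio as low as a value in an alternative, it is the lowest of them. Promoters are RefSeq windows, searched on both strands. Computations ran in Python 3.11.15 with pandas 2.3.3, numpy 2.4.6 and, for figures, matplotlib 3.10.9, and were tested on simulated data.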

Additional observations from a re-analysis of the deposited data

Results flagged for a closer look

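Arhgef25 lay on opposite sides in the genotypes: its log2 ratio of high-fat diet to chow was -1.48 in wild type (signals of 7.68 and 4.73, the latter under the floor) and 1.12 between the arrays labelled LASS2-/-. Each ratio rests on 1 array per group, 1 of its 2 probe sets that reached the floor on a wild-type array went the wild-type way, and its log2 ratio in wild type was -0.44 in the alternative that brought it nearest to zero. The difference was not tested.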

How the results depend on the processing

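No paired analysis was possible because each group has 1 array and no replicate numbers are given, and no array could be left out of a ratio. The counts of 266 higher and 155 lower genes became 1008 and 850 among 16898 genes with the floor at the 25th percentile, and 963 and 638 with a 1.5-fold threshold. Under the other alternatives they ranged from 211 to 266 and from 125 to 165. Of 141 genes at least 2-fold apart that are list members or among the largest differences, 0 changed sign under any alternative. The medians of 13 of the 59 lists, which lay between -0.25 and 0.17, changed sign under at least 1 alternative. With the mean of a gene's probe sets 21 of the 141 came within 2-fold, and 11 of 119 without probe sets ending in _x_at, _s_at or _a_at. Signals near the floor limit dim genes, whose folds are bounds.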

Other observations

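Zonation genes, which mark the hepatocytes around the central vein or the portal tract, had 24 of 26 entered, none 2-fold apart and a median log2 ratio of 0.15. Of those entered, 15 had a positive ratio and 9 a negative one. Among those of the central zone, the Wnt targets Tbx3 (8.34 on chow and 9.25 on the high-fat array), Rnf43 (7.37 and 8.28), Lgr5 (7.29 and 7.87) and the glutamine synthetase Glul (13.89 and 14.27) had positive ratios, as did the ammonium transporter Rhbg (7.19 and 7.88). Of the portal zone, Hal, which degrades histidine, had 12.16 and 11.67, and Cdh1, the epithelial cadherin, had 10.02 and 9.68. Zonal genes did not all follow this division. The Wnt target Axin2 had a log2 ratio of -0.07 and the central Cyp1a2 -0.24, while the portal Ass1 had 0.37.

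Lysosomal genes had 22 of 29 entered members with a positive ratio and a median of 0.18. Ctse, an aspartic protease of immune and gastric cells, had 5.85 and 7.64, at least 2.76-fold higher, with a log2 ratio as low as 0.95 in an alternative. Hexa (11.91 and 12.50), Psap (12.63 and 13.02) and Lipa (12.36 and 12.72) were within 2-fold, and Ctsc was on the other side with 12.96 and 12.44.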
